A study of Mus musculus with 3 samples.

Results

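Cells sorted for a PTHrP reporter from the roots of mouse molars include a minority with high transcript levels of Ogn, Mfap4, Pmch, Angpt4, Igfbp3, Sfrp2 and Angpt1. These cells, called Ogn Igfbp3 Sfrp2-high cells here, are the subject of the description. They were chosen in each library by 1 score, the mean over the 7 genes of log1p(10000 × UMI / cell total), where a UMI (unique molecular identifier) counts 1 captured transcript. The 5% of eligible cells with the highest score were taken. A cell was eligible with at least 500 genes, at most 20% mitochondrial UMIs, no UMI of the leukocyte gene Ptprc or the epithelial gene Epcam, and Ibsp, a cementum and bone matrix gene, under 1% of its UMIs. Of 27089 cells in the series, 17924 were eligible and 896 became members, made up of 413 P15 cells, 304 P25 cells and 179 cells of 8 weeks. The other 17028 eligible cells are called the other kept cells. The score genes chose the members, so their levels describe the choice and carry no test.

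All animals carried the Pthrp-mCherry knock-in allele, in which mCherry marks cells that express Pthlh, the gene of PTHrP. Mandibular molars were dissociated and mCherry-positive cells were sorted from cells pooled over mandibles, so animals within a pool cannot be separated. Each age, postnatal day 15 (P15), day 25 (P25) and 8 weeks (P8w), gave 1 10x Chromium 3' library without replicate, and the groups differ by age alone as far as the labels say. The reporter gate did not leave cementoblast lineage cells alone, since Ptprc-positive and Epcam-positive cells were present before the filter.

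The P15 members held 6855108 UMIs with a median of 15886 per cell, against a median of 15342 in the other kept cells of that library. The P25 members held 5675935 UMIs with a median of 17625, against 16487. The 8-week members held 1752650 UMIs with a median of 9725, against 9338. Depth within each library was therefore close between members and other kept cells, whereas the 8-week library was the shallowest. The P25 counts came from another Cell Ranger version and a larger gene reference. Ddx3y, a Y-linked gene, was at 53.8 CPM (counts per 1000000 UMIs) in the P15 members and 74.9 CPM in the 8-week members, but 10.6 CPM in the P25 members. The pool of animals, the reference and age cannot be told apart at P25. No member barcode was shared between libraries.

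The periodontal ligament, the fibrous tissue between tooth root and jaw bone, arises with cementum and alveolar bone from the dental follicle. Cells of the follicle and ligament that have not yet differentiated lie near the root surface and the apex, in an environment where Wnt, BMP and PTHrP signals are known to govern mineralisation. Ogn encodes osteoglycin, a small leucine-rich proteoglycan, and Mfap4 a microfibril-associated glycoprotein. Igfbp3 binds insulin-like growth factors, Sfrp2 modulates Wnt signalling outside the cell, Angpt1 and Angpt4 are ligands of the Tek (Tie2) receptor, and Pmch encodes the precursor of melanin-concentrating hormone.

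In the GRCm38 annotation, Ogn (ENSMUSG00000021390) lies at chr13:49608046-49624501, Mfap4 (ENSMUSG00000042436) at chr11:61485431-61488900 and Sfrp2 (ENSMUSG00000027996) at chr3:83766321-83774316, all on the plus strand. Angpt4 (ENSMUSG00000027460) lies at chr2:151911210-151945337 and Pmch (ENSMUSG00000035383) at chr10:88091072-88092375, also on the plus strand. Igfbp3 (ENSMUSG00000020427) lies at chr11:7206086-7213923 and Angpt1 (ENSMUSG00000022309) at chr15:42424723-42676977, both on the minus strand. Counts are summed over each whole gene.

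The score genes were higher in members than in other kept cells in all 3 libraries, as the rule requires. Sfrp2 was at 2840, 3975 and 3341 CPM in members at P15, P25 and 8 weeks, against 326, 445 and 339 CPM in the other kept cells. Igfbp3 was at 2866, 5147 and 4634 CPM, against 364, 1143 and 1220 CPM. Ogn was at 2674, 2045 and 2712 CPM, against 568, 549 and 751 CPM. The Sfrp2 ratio of members to other kept cells ran from 8.70 to 9.85 over the libraries, whereas the Igfbp3 ratio was 7.87 at P15 and 3.80 at 8 weeks. Angpt4 was at 364, 579 and 651 CPM in members, against 41.2, 96.1 and 172 CPM. Angpt1 was at 284, 214 and 432 CPM, against 41.4, 31.4 and 62.2 CPM. Both ligands were more than 3-fold higher in members at every age. Tek, their receptor gene, was at 1.61, 0.371 and 0.572 CPM in members against 2.60, 1.21 and 8.16 CPM, and was not called by the test between both classes. Mfap4 was at 741, 1137 and 992 CPM in members, against 244, 331 and 302 CPM.

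**Figure D1:**
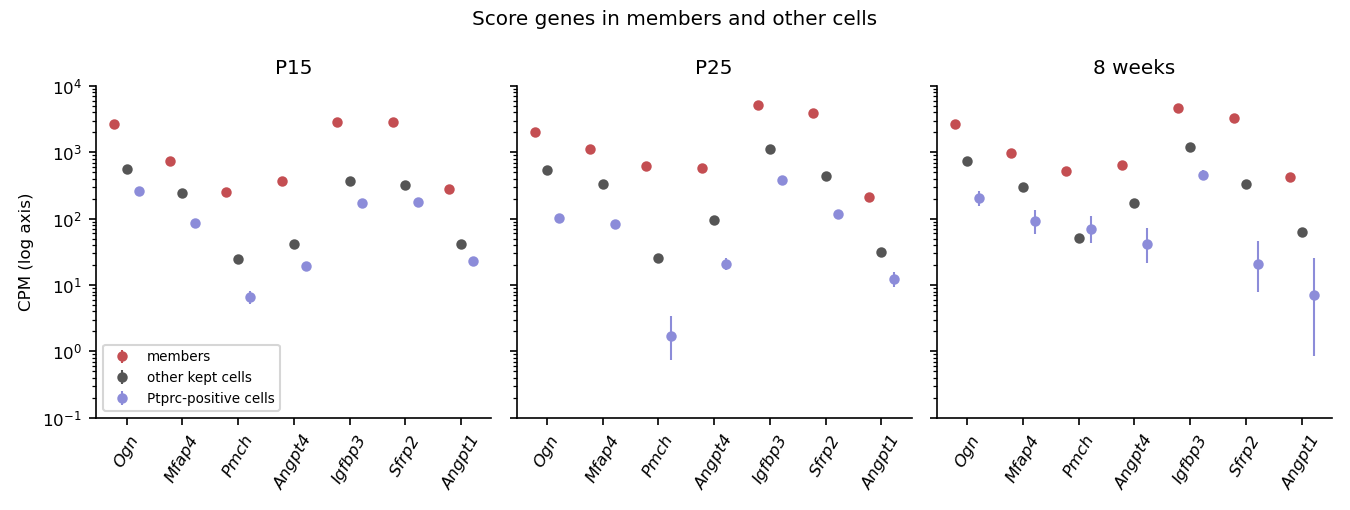
CPM of the 7 score genes on a log axis at each age, in members (red), other kept cells (dark grey) and Ptprc-positive cells left out by the filter (violet), with exact Poisson 95% intervals. Members lie highest for every gene because the score chose them, and Ptprc-positive cells, a type that should lack these genes, show the background, for example 176 CPM of Sfrp2 at P15 against 2840 CPM in members.

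Pmch was the least uniform of the 7 genes. It was at 249, 617 and 526 CPM in members, against 25.05, 25.8 and 51.5 CPM, but a UMI was seen in only 28.1%, 47.7% and 37.4% of members. The 10 members with the most Pmch UMIs held 58.8%, 33.6% and 68.0% of them at the successive ages. Pmch transcripts thus came from a minority of members at every age. After thinning each cell to 3000 UMIs, 13.8% of P15 members had a Pmch UMI (exact 95% interval 10.6 to 17.5%), against 2.16% of other kept cells and 0.832% of Ptprc-positive cells, whose median depth was 11148 UMIs. Angpt4, in contrast, was seen in 92.0%, 100% and 97.8% of members, and in 65.1%, 78.9% and 82.3% after thinning. The corresponding thinned shares in Ptprc-positive cells were 2.71%, 3.77% and 12.5%, with median depths of 11148, 15196 and 10663 UMIs. The 8-week share of 12.5% rests on 24 cells (exact 95% interval 2.66 to 32.4%).

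Members were not separated from the other cells by a gap in the score. The lowest member and the highest other kept cell both scored 1.83, 2.07 and 2.12 in the P15, P25 and 8-week libraries. Within 0.1 of that border lay 110, 96 and 51 members and, on the other side, 119, 124 and 86 other kept cells. At least 6 of the 7 score genes were detected in 92.0%, 96.1% and 94.4% of members, against 9.47%, 17.8% and 14.7% of other kept cells. A doublet caller marked 2, 6 and 0 members.

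Genes outside the score were compared between members and other kept cells on UMIs summed per library and class. The quasi-likelihood test of edgeR was used with the library as a block, and Benjamini-Hochberg adjustment ran over all genes tested. Calls required an adjusted p below 0.05 and more than 1 log2 unit of difference. Of 13126 genes tested, 363 were higher in members (2.77% of the genes) and 905 were lower (6.89%). Without the library block 79 were higher and 141 lower, and without the P25 library 241 and 640. The spread behind these tests is that between 3 ages, not between replicate animals, and genes that vary together with the score genes across cells are not independent of the rule.

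The label given to these cells, ligament precursors, was set against 14 ligament and tendon genes, of which 13 could be tested. None was called higher and 4 were called lower, beside 2.77% of all genes higher and 6.89% lower, so that 0 of 13 higher is near the background share. The list had a median log2 fold change of -0.44, and all genes tested had one of -0.00. Scx, the transcription factor that defines tendon and ligament cells, was at 2.05, 14.9 and 10.3 CPM in members at P15, P25 and 8 weeks, against 6.74, 12.9 and 13.4 CPM (log2 fold change -0.44 ± 0.36 SE, adjusted p = 0.456 with Benjamini-Hochberg adjustment, quasi-likelihood test of edgeR). It was low in both classes. Postn, periostin of the ligament matrix, was at 557, 1129 and 660 CPM in members, below 1167, 2677 and 2056 CPM (log2 fold change -1.33 ± 0.11). Tnmd, tenomodulin, was at 42.0, 42.7 and 23.4 CPM against 158, 153 and 52.9 CPM (-1.76 ± 0.13). Tnn, tenascin-W, was lower too (-1.64 ± 0.12), and so was Cilp, which rests on few UMIs and was not called without the 8-week library (-1.72). Tnc, tenascin-C, missed the threshold on size with 416, 597 and 600 CPM against 261, 268 and 262 CPM (0.99 ± 0.11). Kera was at 0 in members of every library. Further members of the list were above the other kept cells in all 3 libraries without reaching the threshold on size. Mkx, the Mohawk transcription factor of tendon, was at 38.2, 52.7 and 55.4 CPM in members against 24.1, 32.8 and 37.7 CPM (0.62 ± 0.09). Aspn, asporin, was at 742, 1357 and 851 CPM against 575, 671 and 486 CPM (0.71 ± 0.13), and Egr1, a factor that stress during dissociation also induces, at 1797, 2255 and 4100 CPM against 1421, 1601 and 2930 CPM (0.42 ± 0.05). Thbs4 was at 522, 791 and 2433 CPM against 798, 501 and 1257 CPM (0.32 ± 0.45). The list was thus mixed. Against the eligible cells highest in Mia, Apod and Gpha2 (the Mia Apod Gpha2 cells, described below), 2 of 11 genes were higher and 1 lower. Of all genes 1.53% and 1.51% were. No gene of the list was called higher against the other kept cells, so the list did not bear out the label. The cells are described by their leading genes alone.

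The study's own markers of its precursor 0 cluster were mostly higher in members. Of the 6 such genes outside the score, 5 were called higher, where 2.77% of all genes were. The study drew this list from these libraries, so it is not independent evidence of direction. Fbln1, the matrix protein fibulin-1, was at 604, 1211 and 1104 CPM in members against 211, 451 and 538 CPM (log2 fold change 1.31 ± 0.10). Cxcl12, the chemokine of stromal niche cells, was at 331, 388 and 539 CPM against 141, 138 and 233 CPM (1.29 ± 0.08). Gpx3, an extracellular glutathione peroxidase, was at 1147, 3380 and 4853 CPM against 507, 1432 and 2053 CPM (1.20 ± 0.05). Each of these 3 genes was more than 2-fold higher in members in all 3 libraries, and the counting intervals of both classes did not overlap. Igfbp4 was at 2612, 2772 and 2366 CPM against 1212, 1511 and 1666 CPM and missed the threshold on size (0.81 ± 0.12). The markers of 2 further precursor clusters of the study gave 1 higher and 1 lower of 7 genes, and 0 higher and 1 lower of 8. Of all genes 2.77% were higher and 6.89% lower, so that 0 or 1 gene in lists this short is near the background. Beside the same shares, its periapical clusters gave 0 higher of 7 genes each, with 2, 3 and 2 lower. Its cementoblast alpha and beta lists gave 0 higher of 8 tested genes each, with 5 and 5 lower.

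**Figure D2:**
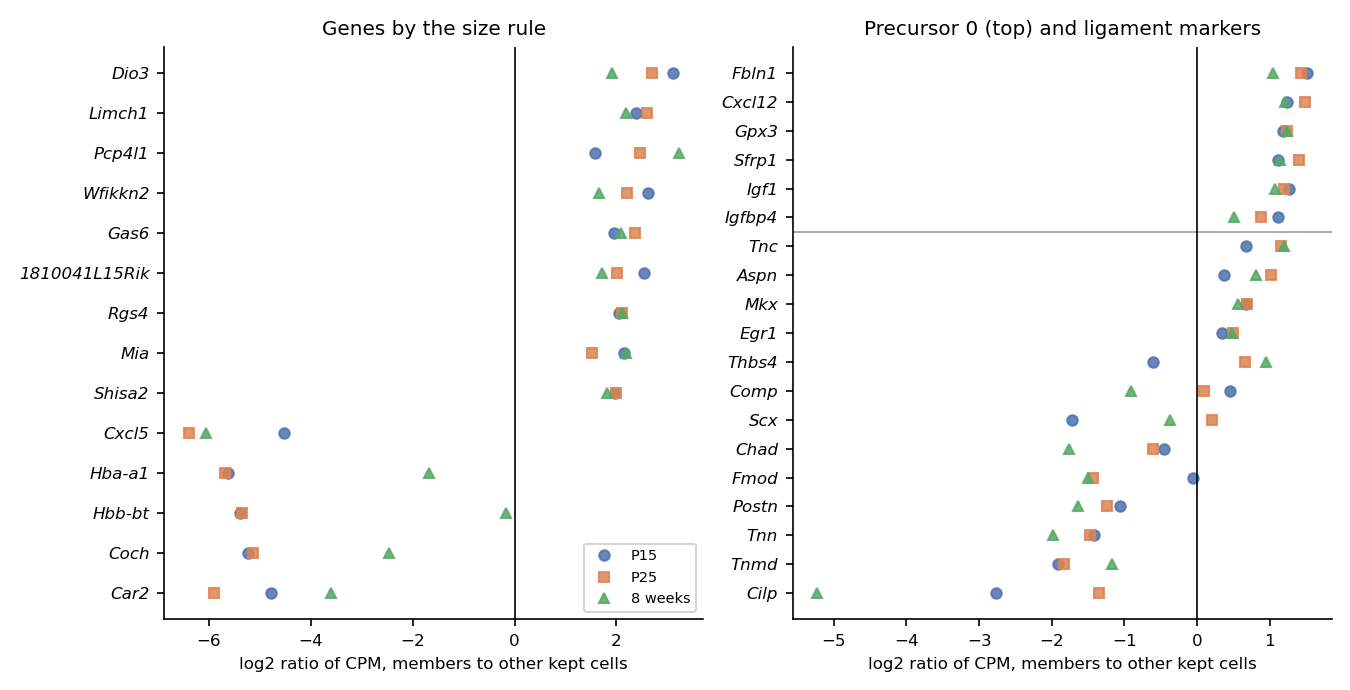
Log2 ratio of CPM in members to other kept cells, 1 symbol per library, for 14 genes chosen by size (left) and for the precursor 0 and ligament markers outside the score (right, separated by a line). Ratios of the 9 upper genes on the left lie above 0 at every age and those of the 5 lower genes below it, whereas on the right Postn, Tnn, Tnmd and Cilp lie left of 0, and Tnc, Aspn, Mkx and Egr1 right of 0, in all 3 libraries.

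The 10 genes with the largest increase in members were fixed by a rule on size, direction in all 3 libraries and at least 50 CPM in the higher class. Dio3, the deiodinase that inactivates thyroid hormone, led with 295, 240 and 284 CPM in members against 34.3, 37.0 and 74.9 CPM (log2 fold change 2.58 ± 0.30, adjusted p = 0.0203 with Benjamini-Hochberg adjustment, quasi-likelihood test of edgeR). Its level in members was steady, while that of the other kept cells was highest at 8 weeks. Limch1, an actomyosin regulator, was at 220, 94.0 and 69.2 CPM against 42.3, 15.5 and 15.1 CPM (2.39 ± 0.09). Gas6, the ligand of the TAM receptor kinases, was at 324, 512 and 636 CPM against 83.3, 99.7 and 149 CPM (2.12 ± 0.09). Limch1 was lower and Gas6 higher at the later ages in both classes, and the ratio between classes stayed above 3-fold at each age. Wfikkn2, a secreted binder of GDF family ligands, was at 117, 152 and 146 CPM against 19.1, 32.7 and 46.4 CPM (2.17 ± 0.20). Rgs4, a regulator of G protein signalling, was at 38.6, 83.2 and 77.7 CPM against 9.27, 19.2 and 18.0 CPM (2.08 ± 0.09). Shisa2, which holds Wnt and FGF receptors inside the cell, was at 74.7, 88.0 and 86.9 CPM against 19.2, 22.1 and 24.6 CPM (1.91 ± 0.08). Also among the 10 were Pcp4l1 (2.31 ± 0.39), 1810041L15Rik (2.09 ± 0.17) and Mia, a small secreted protein of cartilage (1.92 ± 0.15). Without the P25 library Dio3 (adjusted p = 0.195), Pcp4l1 (0.302) and Wfikkn2 (0.0546) were no longer called by edgeR, with the same direction.

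The 5 genes with the largest decrease were Cxcl5, Hba-a1, Hbb-bt, Coch and Car2. Cxcl5, a neutrophil chemokine, was at 0.585, 1.49 and 1.71 CPM in members against 13.4, 125 and 114 CPM (log2 fold change -5.99 ± 0.22). It was nearly absent from members at every age. Coch, the matrix protein cochlin, was at 7.46, 3.34 and 2.86 CPM against 279, 118 and 15.7 CPM (-5.07 ± 0.30). Hba-a1, a haemoglobin chain, was at 19.5, 14.7 and 5.72 CPM against 965, 751 and 18.4 CPM (-5.49 ± 0.64). Hbb-bt, another, did not differ at 8 weeks, with 4.001 against 4.52 CPM. Both globin genes lost their call without P15 and without P25, and Coch without P25 (adjusted p = 0.066 by edgeR). Globin transcripts mark red blood cells. Their part in the differences was not tested. Car2, carbonic anhydrase 2, was at 4.83, 0.557 and 0.572 CPM against 132, 33.5 and 6.92 CPM (-4.94 ± 0.19).

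Beside the score gene Igfbp3, members held more transcripts of both insulin-like growth factors. Igf1 was at 1469, 1289 and 1336 CPM in members against 615, 565 and 638 CPM (log2 fold change 1.15 ± 0.06). Igf2 was at 812, 707 and 715 CPM against 251, 261 and 268 CPM (1.5 ± 0.07). Both ligands were more than 2-fold higher in members at each age. Of the 13 IGF axis genes tested, 2 were called higher, 2 lower and 9 neither, where 2.77% of all genes were higher and 6.89% lower, so that 2 lower is about 1 gene above the background share. Lower were Stc1 (-3.80 ± 0.18) and Stc2 (-1.17 ± 0.34), stanniocalcins that inhibit the protease cutting IGF-binding proteins. Stc2 was under 2.5 CPM in members and lost its call without any 1 library (-0.99 without 8 weeks). The receptors Igf1r (0.07 ± 0.07) and Igf2r (0.17 ± 0.13) and the binding protein Igfbp7 (0.01 ± 0.06) were not called.

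The list of Wnt inhibitors, which holds the Dkk membrane receptors Kremen1 and Kremen2 beside secreted proteins, was called in both directions against the other kept cells. Kremen2 was too low to be tested. Of 10 tested, 3 were higher and 3 lower, beside 2.77% and 6.89% of all genes. Sfrp1 was at 442, 478 and 550 CPM in members against 205, 180 and 251 CPM (log2 fold change 1.20 ± 0.08). Sostdc1, which antagonises both Wnt and BMP signals, was at 266, 108 and 59.4 CPM against 105, 30.01 and 15.7 CPM (1.64 ± 0.12). Frzb was higher as well (1.03 ± 0.09, and 0.91 without the P25 library). Sfrp4 was at 34.5, 28.0 and 17.7 CPM against 42.9, 54.4 and 120 CPM and was not called. Lower were the secreted Dkk2 (-3.84 ± 0.38) and Notum (-3.73 ± 0.24) and, of the receptors, Kremen1 (-1.82 ± 0.13), with Dkk2 not called without the P25 library. Wif1, the Wnt inhibitory factor that marks apical cells in the study, was at 2473, 4815 and 5497 CPM in members and 2797, 4320 and 5803 CPM in the other kept cells (-0.05 ± 0.07, adjusted p = 0.636 with Benjamini-Hochberg adjustment, quasi-likelihood test of edgeR). It was abundant in both classes. Against the Mia Apod Gpha2 cells, 0 of 8 genes of the list were higher and 0 lower, beside 1.53% and 1.51% of all genes. Against the Hand2 Nts Alx1 cells, also described below, 1 of 9 was higher and 4 lower, beside 3.92% and 3.56%. No gene of the list was thus called between members and the Mia Apod Gpha2 cells.

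Against the other kept cells, Wnt-responsive transcripts were called in the lower direction or not at all. Of 15 tested, 0 were called higher and 7 lower, against 6.89% of all genes lower, and the median log2 fold change was -0.66. Axin2, a feedback inhibitor of the pathway, was at 15.1, 13.0 and 17.1 CPM in members against 41.0, 26.8 and 29.4 CPM (log2 fold change -1.17 ± 0.14). Nkd1, another feedback inhibitor, was at 30.7, 30.1 and 37.7 CPM against 113, 98.7 and 97.8 CPM (-1.71 ± 0.10). Apcdd1 (-3.01 ± 0.15), Nkd2 (-1.39 ± 0.25), Tnfrsf19 (-1.11 ± 0.11), Sp5 and Lgr5 made up the rest, the last 2 at under 1.5 CPM in members. Without the P15 library the Axin2 difference was -0.97 and Nkd2 was not called, and without P25 Nkd2, Tnfrsf19 (-0.96) and Lgr5 were not called, nor was Lgr5 without 8 weeks. At 0.74 ± 0.11, Tcf7l1, a repressor of Wnt targets, was below the threshold on size. Against the Mia Apod Gpha2 cells, 1 of 12 genes of the list was higher and 0 lower, beside 1.53% and 1.51% of all genes. Against the Hand2 Nts Alx1 cells, 0 of 13 were higher and 3 lower, beside 3.92% and 3.56%. The lower calls thus depended on the comparison group.

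Many mineral matrix genes were lower in members than in the other kept cells. Of 15 tested, 8 were called lower, beside 6.89% of all genes, and 0 higher, which is near the background of 2.77%. The median log2 fold change was -1.89. Ibsp was part of the filter and is left out. Spp1, osteopontin, was at 15.6, 24.9 and 38.3 CPM in members against 212, 564 and 815 CPM (-4.24 ± 0.16). Smpd3, a sphingomyelinase needed for mineralisation, was at 15.9, 11.0 and 11.4 CPM against 379, 428 and 276 CPM (-4.86 ± 0.15). Dmp1, a cementocyte and osteocyte gene, was at 1.32, 2.04 and 3.43 CPM against 11.8, 80.9 and 61.4 CPM (-4.52 ± 0.32). Bglap, osteocalcin, was at 158, 258 and 848 CPM against 753, 3140 and 4798 CPM (-2.80 ± 0.40) and lost its call without P15 or without 8 weeks. The transcription factors that precede mineralisation were not called, with Runx2 at 267, 212 and 255 CPM against 243, 200 and 260 CPM (0.05 ± 0.07) and Sp7 at -0.53 ± 0.07. Alpl, alkaline phosphatase, was at 291, 322 and 362 CPM against 254, 275 and 262 CPM (0.28 ± 0.07). Bglap and Bglap2 are near-identical copies whose reads may be split between them. Against the Mia Apod Gpha2 cells, 1 of 14 mineral matrix genes was higher and 1 lower, beside 1.53% and 1.51% of all genes. Against the Hand2 Nts Alx1 cells, 0 of 14 were higher and 0 lower, beside 3.92% and 3.56%. The lower calls were thus particular to the comparison with the other kept cells.

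Of 18 collagen chains, 8 were called lower in members and 0 higher, beside 6.89% and 2.77% of all genes, with a median log2 fold change of -0.99. Col12a1, a fibril-associated collagen of the ligament, was at 416, 434 and 266 CPM in members against 897, 1210 and 1012 CPM (log2 fold change -1.51 ± 0.17, and not called without P25). Col1a2 was at 6765, 10129 and 5890 CPM against 11921, 21739 and 13210 CPM (-1.05 ± 0.07, and -0.99 without 8 weeks). Col3a1 was at 6198, 9148 and 6923 CPM against 7522, 10097 and 8530 CPM (-0.26 ± 0.05). The collagens thus differed between classes to unequal degrees. Against the Mia Apod Gpha2 cells, 2 of 16 collagen chains were higher in members and 0 lower, beside 1.53% and 1.51% of all genes. Against the Hand2 Nts Alx1 cells, 0 of 17 were higher and 3 lower, beside 3.92% and 3.56%. Among elastic fibre and microfibril genes, 3 of 19 were higher, beside 2.77% of all genes, and 2 lower, near the background of 6.89%. Ltbp2, a microfibril protein, was at 25.3, 21.2 and 11.4 CPM against 4.83, 3.84 and 3.49 CPM (2.27 ± 0.18), and Fbln5, an elastic fibre organiser, at 169.7, 188 and 147 CPM against 46.7, 81.0 and 81.6 CPM (1.31 ± 0.23, and not called without P25). The cross-linking enzyme Lox was lower (-1.17 ± 0.12). Of 12 small leucine-rich proteoglycans outside the score, Lum (-3.07 ± 0.37) and Podn (-1.24 ± 0.29) were lower, Optc was higher at under 2 CPM, and 9 were not called. Lum lost its call without P15 or 8 weeks, Podn without P25 or 8 weeks, and Optc without P15 or P25. Omd and Aspn, further proteoglycans of this family, stood at 0.51 ± 0.08 and 0.71 ± 0.13.

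BMP and TGF-beta genes gave 2 higher and 5 lower of 24, beside 2.77% higher and 6.89% lower of all genes tested, with a median log2 fold change of -0.20. Both shares were above those of all genes, from few members. Bmper, a BMP-binding regulator, was higher from a low level (log2 fold change 1.39 ± 0.25, and 0.96 without P15). The antagonist Nog was at 31.0, 38.8 and 45.2 CPM against 16.7, 18.6 and 20.9 CPM and missed the threshold on size narrowly (1.0 ± 0.10). The ligands Bmp3 (-2.34 ± 0.09), Bmp4 (-2.10 ± 0.27), Bmp7 (-1.13 ± 0.11) and Tgfb1 (-1.09 ± 0.07) were lower, as was the activin antagonist Fst (-1.26 ± 0.29). Bmp4 and Fst lost their call without P25, and Bmp7 stood at -0.98 without P15. Of 13 chemokines, with a median of -1.76, Cxcl12 was the 1 higher, close to the background share of 2.77%, and 7 were lower, beside 6.89% of all genes, Ccl11, Ccl2, Ccl7, Cxcl2 and Cxcl5 among them. Of 14 vascular growth factor genes outside the score, 0 were higher, near the background of 2.77%, and 3 lower, beside 6.89% of all genes. Pdgfa, a platelet-derived growth factor ligand, was at 21.4, 24.5 and 25.7 CPM against 56.3, 56.6 and 41.6 CPM (-1.19 ± 0.13). Kdr (-2.58 ± 0.39) and Flt1 (-4.47 ± 0.42), receptors of endothelial cells, were at 1.46 CPM or less in members, and Vegfa stood at 0.10 ± 0.07. None of 5 osteoclast cytokine genes was called, and of 7 neuropeptide genes Tac1, the substance P precursor, was lower (-5.21 ± 0.18).

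**Figure D3:**
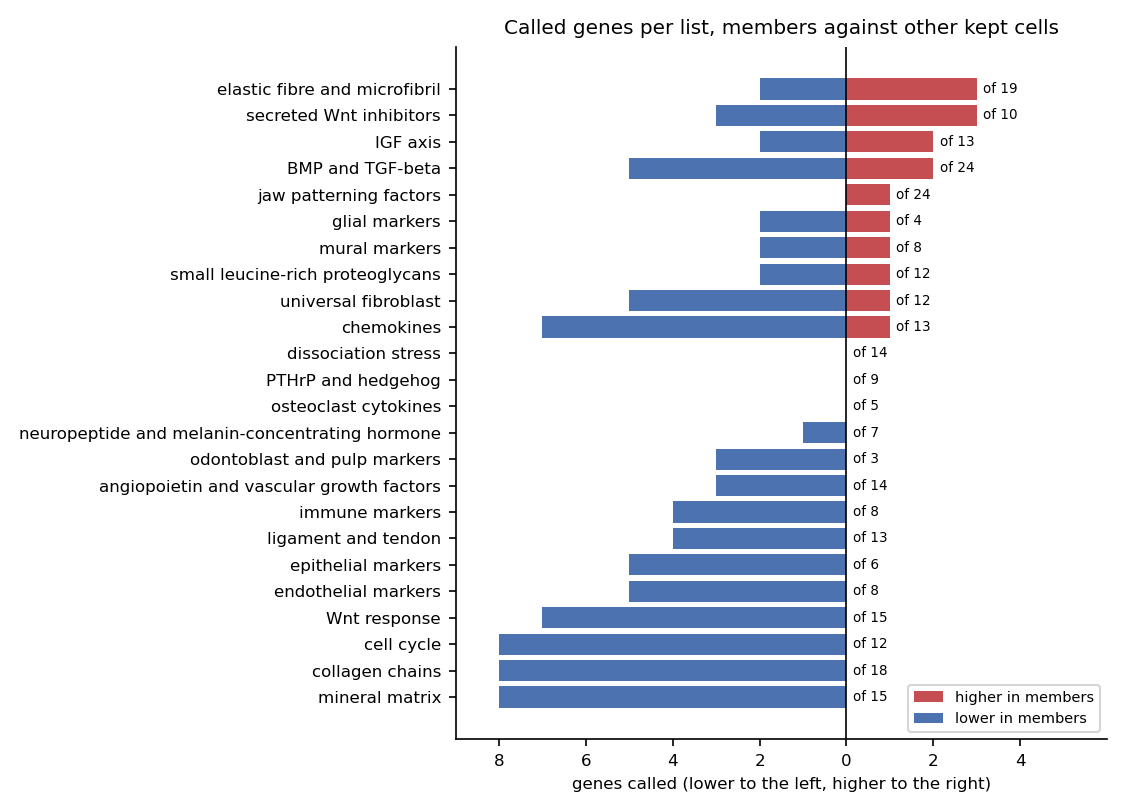
Number of genes called higher (red, to the right) or lower (blue, to the left) in members than in other kept cells for each gene list, with the number tested beside each bar. Mineral matrix, collagen, cell cycle and Wnt response genes were called lower only, with 8, 8, 8 and 7 genes, while the list of secreted Wnt inhibitors, which includes the receptor Kremen1, gave 3 and 3. Of all genes 2.77% were higher and 6.89% lower.

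Of 24 jaw patterning transcription factors, 1 was called higher and 0 lower, a share near the 2.77% of all genes called higher. It was Dlx6, at 128, 114 and 132 CPM in members against 50.9, 44.3 and 73.7 CPM (log2 fold change 1.18 ± 0.11). Its neighbour Dlx5 stood at 0.85 ± 0.14. None of 9 PTHrP and hedgehog genes was called. Pthlh itself, the gene behind the reporter, was at 61.0, 70.8 and 123 CPM in members against 112, 185 and 172 CPM (-0.95 ± 0.19), and the mCherry transcript at 160, 235 and 260 CPM against 236, 329 and 392 CPM. Both were lower in members in each library without passing the threshold on size. Ptch1, a hedgehog receptor and target, stood at 0.80 ± 0.16.

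Of 12 cell cycle genes, 8 were called lower in members, where 6.89% of all genes were, and 0 higher, where 2.77% were. Their median log2 fold change was -1.37. Mki67 was at 10.4, 5.57 and 0.572 CPM in members against 47.4, 34.3 and 15.4 CPM (log2 fold change -2.49 ± 0.20), and Top2a at 21.5, 15.97 and 9.72 CPM against 69.5, 72.3 and 28.7 CPM (-1.89 ± 0.13). Pcna, by contrast, was at 28.4, 101 and 87.5 CPM against 40.5, 94.8 and 65.4 CPM (-0.02 ± 0.19). With the score taken on cells thinned to 3000 UMIs, Mki67 (adjusted p = 0.0829 by edgeR) and Top2a (0.0649) were not called. None of 14 dissociation stress genes was called, although their summed level was 1.11, 1.25 and 1.34 times that of the other kept cells at P15, P25 and 8 weeks.

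Most marker genes of other cell types were lower in members or not called. The counts of each list stand beside 2.77% higher and 6.89% lower of all genes, so that 0 genes higher in lists this short is near the background. Of the 8 endothelial genes 5 were called lower and 0 higher. Emcn was at 0 in members of every library, Cdh5 at 0.439, 0 and 0 CPM, and most of the list's 78.7, 69.1 and 45.2 CPM in members was Ramp2. In the other kept cells the list summed to 134, 49.5 and 79.5 CPM, so that the sum was higher in members at P25 and lower at the other ages. Of 4 glial genes tested, 1 was higher, 2 lower and 1 neither, with a median log2 fold change of -1.07. S100b was higher at 54.3, 17.3 and 36.0 CPM, just past the threshold on size (1.01 ± 0.16, and 0.82 without 8 weeks), Gpm6b (-1.26 ± 0.20, and -0.95 without P25) and Lgi4 (-3.55 ± 0.53) were lower, and Sox10 was at 0 in members of every library. The list summed to 69.8, 27.5 and 53.2 CPM in members against 74.8, 46.2 and 41.9 CPM, below the other kept cells at P15 and P25. Of 6 epithelial genes 5 were lower and 0 higher, with Krt14 at 107, 78.4 and 19.4 CPM against 414, 413 and 105 CPM. Of 8 immune genes 4 were lower and 0 higher, and the list summed to 180, 37.3 and 21.7 CPM in members against 375, 25.7 and 38.0 CPM, again higher in members at P25 alone. Universal fibroblast markers gave 5 lower and 1 higher of 12, with Dpt (-3.70 ± 0.29), Cd34 (-3.17 ± 0.42) and Col15a1 (-4.90 ± 0.21) low in members, the first 2 not called without P25. Gpx3 was the 1 higher (1.20 ± 0.05), and Penk (1.37 ± 0.29) was above the other kept cells in all 3 libraries without being called. The fibroblast list summed to 1621, 4143 and 5821 CPM in members against 1012, 2532 and 5311 CPM, and most of the sum in members was Gpx3. All 3 odontoblast and pulp markers tested were lower, and the list summed to 9.95, 9.47 and 4.57 CPM. Of 8 mural genes 1 was higher, 2 lower and 5 neither, with a median log2 fold change of -0.49. The list summed to 555, 225 and 582 CPM in members against 451, 133 and 223 CPM, and most of the sum in members was Acta2. Acta2, smooth muscle actin, was higher in members (434, 128 and 408 CPM against 162, 47.1 and 118 CPM, 1.53 ± 0.09), while Myh11, the smooth muscle myosin that defines contractile mural cells, was under 0.6 CPM in members of every library and lower by the test (-2.42 ± 0.58, and not called without P15 or P25). Mcam was lower as well (-1.85 ± 0.51, and not called without P15). Notch3 stood at -0.53 ± 0.24. Rgs5, a pericyte gene, was at 35.0, 41.8 and 143 CPM in members against 179, 14.3 and 29.3 CPM, below the other kept cells at P15 and above them at the later ages, and was not called (0.53 ± 1.53). The part of these other cell types in the differences was not tested.

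The members were also set against the 5% of eligible cells highest in Mia, Apod and Gpha2. This group shared 27.1% of its cells with the members at P15, and 13.2% and 13.4% at the later ages, and shared cells were left out of both. Of 11073 genes tested, 169 were higher in members (1.53%) and 167 lower (1.51%), or 24 and 27 without the library block. Mmp13, collagenase 3, was at 1068, 1086 and 827 CPM in members against 69.4, 95.2 and 56.8 CPM (log2 fold change 3.78 ± 0.13). Itgbl1, a secreted integrin-like protein, was at 285, 417 and 252 CPM against 36.1, 37.4 and 37.0 CPM (3.13 ± 0.15). Entpd3, an ectonucleotidase, was at 82.7, 98.9 and 66.0 CPM against 8.50, 16.7 and 12.3 CPM (2.83 ± 0.18). These 3 genes separated the groups at every age by more than 5-fold. The contractile genes Tagln (2.70 ± 0.32) and Acta2 (2.41 ± 0.37) were higher too, but were not called without P25, and Acta2 not without P15. Lower in members were Col9a3, a cartilage collagen, at 12.9, 5.43 and 1.96 CPM against 283, 101 and 67.5 CPM (-4.39 ± 0.15), Krt8 (-3.11 ± 0.18), Tgfbi (-2.92 ± 0.32), Neto1 (-2.12 ± 0.18) and Mgp, an inhibitor of mineralisation (-2.04 ± 0.34). Without P15 Tgfbi and Mgp were not called, and Mgp not without 8 weeks.

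The 5% highest in Hand2, Nts and Alx1, genes that mark periapical cells in the study, shared 6.30%, 0.987% and 0% of their cells with the members. Of 11397 genes tested, 447 were higher in members (3.92%) and 406 lower (3.56%). These counts depended on which library was left out. Without P25 0 genes were called by edgeR, with 1913 at an unadjusted p under 0.05. Without 8 weeks there were 70 higher and 118 lower, whereas without P15 there were 1133 and 686. Both pairs of libraries that held P15 thus gave fewer calls than all 3 libraries, and the reason was not tested. Gpha2, a glycoprotein hormone subunit, was at 687, 846 and 664 CPM in members against 12.5, 11.1 and 17.1 CPM (log2 fold change 5.77 ± 0.22). Nr0b1, an orphan nuclear receptor, was at 57.0, 50.5 and 44.6 CPM in members and at most 0.403 CPM in the Hand2 Nts Alx1 cells. Mia was at 32.5, 145 and 282 CPM in members and at most 1.07 CPM in those cells, and Krt18 at 107, 82.5 and 143 CPM against 3.23, 1.29 and 1.07 CPM. The remaining gene was 1500015O10Rik, at 132, 134 and 232 CPM against 7.26, 0.428 and 1.61 CPM. Kit, a receptor kinase, was at 1.73, 0.939 and 1.14 CPM in members against 27.6, 200 and 274 CPM, and Stmn2 at 0.788, 5.82 and 4.57 CPM against 7.39, 291 and 563 CPM. Hist1h1b (-5.60 ± 0.32) and Lrrc15 (-5.22 ± 0.16) were lower too. Each of these 9 genes had the same direction in all 3 libraries, and none was called without P25.

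Hand2, a transcription factor of the distal jaw, was at 26.2, 6.87 and 2.29 CPM in members at P15, P25 and 8 weeks, against 13.9, 34.0 and 64.7 CPM in the other kept cells. Members were above the other kept cells at P15 and below them at the later ages, and the gene was not called (log2 fold change -1.06 ± 1.26).

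Members were not a single transcriptional cluster. Each library was clustered by itself without the score genes, into 23, 19 and 14 clusters, and the clusters get no test. Among the 15 nearest neighbours of a member, 52.2%, 41.2% and 29.8% were members at the successive ages, where 5% of kept cells were members. At P15 a single cluster of 658 cells, led by Gpha2, Dio3 and Smoc2, held 69.7% of members. A further 13.1% lay in a cluster led by Aldh1a2, S100b and Ptx3, and 8.96% in one led by Acta2, Tagln and Cpz. At P25 the members spread over clusters led by Pcp4 and Icam1 (41.8%), by Gpx3 and Entpd3 (27.3%) and by Mia, Krt18 and Apod (19.4%). At 8 weeks they lay in clusters led by Rgs5, Mmp13 and Rgs4 (53.1%), by Srgn, Cpz and Thbs4 (21.8%) and by Apod, Mia and S100a1 (16.8%). The P25 cluster led by Mia held 628 cells, of which 9.39% were members. Wfikkn2, named above among the largest increases, was at 221 CPM there against 23.2 CPM in kept cells outside it. Its high level was thus not particular to members.

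**Figure D4:**
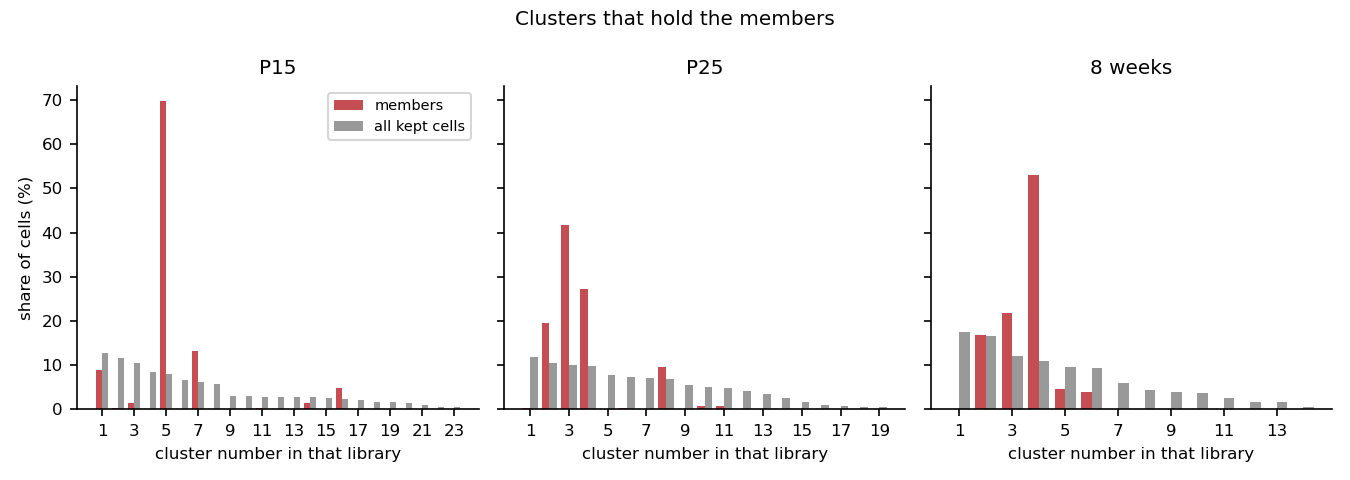
Share of members (red) and of all kept cells (grey) in each cluster, in percent, with clusters numbered by size within each library. Cluster 5 holds 69.7% of members at P15, whereas at P25 clusters 2, 3 and 4 hold 19.4%, 41.8% and 27.3% and at 8 weeks cluster 4 holds 53.1%.

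The score genes themselves differed between these groups of members. Among P15 members, Sfrp2 was at 4436 CPM in the Aldh1a2 cluster and 2405 CPM in the Gpha2 cluster, while Igfbp3 was at 1634 and 3214 CPM there. Gpha2 was at 915 CPM in members of the cluster it leads and at 0 in members of the Aldh1a2 cluster, with an upper 95% Poisson bound of 4.23 CPM. At P25 the members of the Mia cluster held 7559 CPM of Igfbp3 and 1801 CPM of Sfrp2, against 4944 and 4667 CPM in the Gpx3 cluster. At 8 weeks members of the Apod cluster held 6126 CPM of Igfbp3 and 2395 CPM of Sfrp2, against 4370 and 4579 CPM in the Srgn cluster. Members were chosen on the mean of the score genes, so a member low in one of them needed more of the others to pass, and these opposite levels of Igfbp3 and Sfrp2 are a description only. The group with the most Gpha2 and Mia held 140 CPM of Mmp13 at P25 and 183 CPM at 8 weeks, while members in the largest group of those ages held 1099 and 977 CPM. At P15 the group with the most Gpha2 and Mia (42.2 CPM) was itself the largest and held 687 CPM of Mmp13, against 2065 and 973 CPM in the other two. The score genes were left out of the clustering, whereas Gpha2, Mia and Mmp13 were open to it, so that the values of these 3 describe the clusters.

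Levels in members across ages rest on 1 library each, so no difference between ages was tested and intervals cover counting error only. Of 3335 genes with at least 50 CPM at P15 or 8 weeks, 190 were more than 2-fold higher at 8 weeks (5.70%) and 73 more than 2-fold lower (2.19%). The other kept cells showed a change of more than 2-fold in the same direction for 96 and 30 of these. The rule on size gave Bglap2, Hspa1a, Hbegf, Mia and Dusp2 as the largest increases with P25 between both ages. The Mia level in members was 30.9 CPM (95% interval 26.8 to 35.3), then 144 CPM (134 to 154), then 282 CPM (257 to 308), and the other kept cells went from 6.93 to 61.7 CPM. Hbegf, an EGF family ligand, had 6.14 CPM (4.43 to 8.30), then 44.6 CPM (39.1 to 50.6), then 58.3 CPM (47.5 to 70.8), a 9.49-fold difference between P15 and 8 weeks, while the other kept cells went from 17.8 to 27.6 CPM. Bglap2 went from 112 to 1753 CPM in members and from 484 to 4487 CPM in the other kept cells. Hspa1a, a heat shock gene with a near-identical neighbour Hspa1b, was at 24.4, 281 and 318 CPM in members and 28.9, 134 and 169 CPM in the other kept cells. Dusp2, a phosphatase of activated cells, was at 17.1, 106 and 134 CPM in members and 10.9, 39.7 and 66.5 CPM in the other kept cells. The dissociation stress genes together stood at 16743, 23452 and 36775 CPM in members and 15077, 18701 and 27458 CPM in the other kept cells. Their part in these increases was not tested.

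The largest decreases were those of Col26a1, Igfbp2, S100a9, Hist1h2ap and Sulf2. Igfbp2, a further IGF-binding protein, had 90.5 CPM in members (83.5 to 98.0), then 38.8 CPM (33.7 to 44.4), then 3.43 CPM (1.26 to 7.46), while the other kept cells stood at 42.6, 141 and 81.9 CPM. Sulf2, a heparan sulfate sulfatase, was at 70.5, 30.1 and 3.43 CPM in members and 39.0, 36.2 and 30.6 CPM in the other kept cells. Col26a1 was at 78.8, 10.6 and 2.86 CPM and was as low in the other kept cells at 8 weeks, at 3.25 CPM. S100a9, a neutrophil gene, was at 79.1, 3.53 and 3.43 CPM in members and 157, 3.72 and 5.28 CPM in the other kept cells. Members carried no Ptprc by the rule, and the 9 immune genes summed to 180, 37.3 and 21.7 CPM in them. The part of RNA from leukocytes in the S100a9 value was not tested. Hist1h2ap, a replication histone, was at 76.2, 12.6 and 3.43 CPM, and its log2 ratio of 8 weeks to P15 of -4.47 became -1.31 with the top 2.5% as members and -3.31 with the top 10%. With the top 2.5%, that of Bglap2 went from 3.96 to 3.77 and that of Hspa1a from 3.70 to 3.26.

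**Figure D5:**
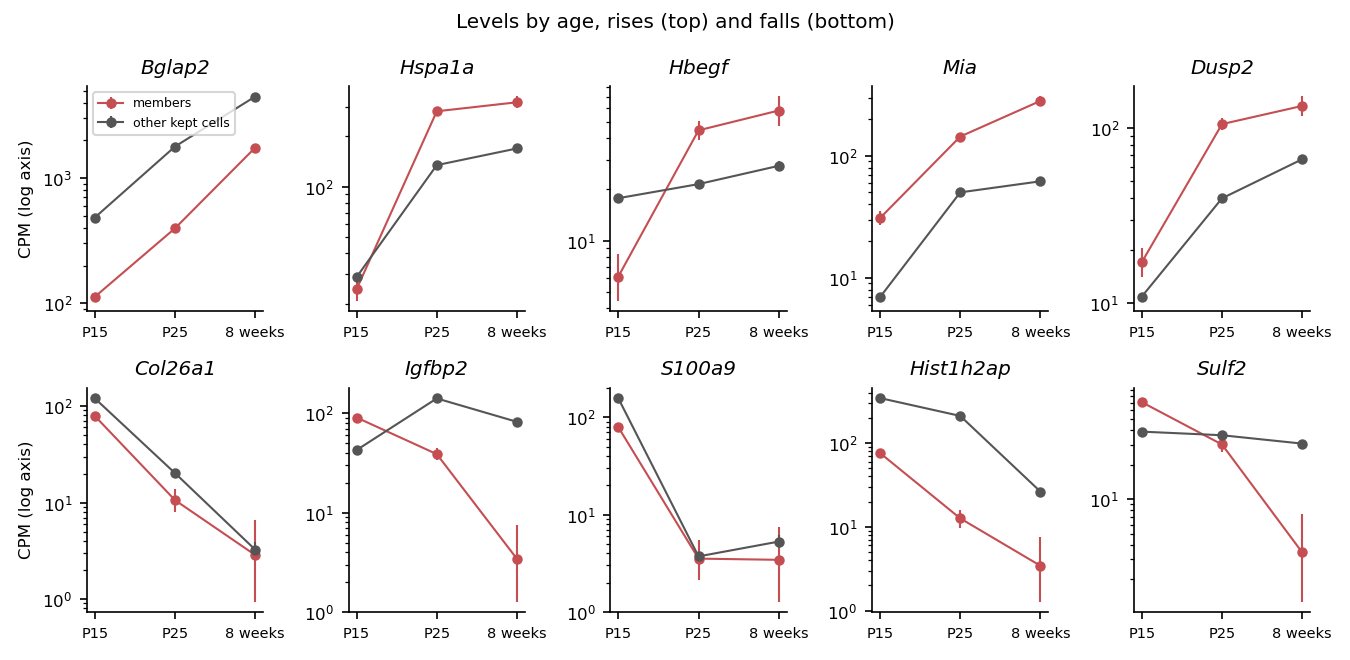
CPM on a log axis at P15, P25 and 8 weeks for the 5 largest increases (top) and decreases (bottom) in members, for members (red) and other kept cells (dark grey), with exact Poisson 95% intervals and 1 library per point. The 5 genes at the top lie higher at 8 weeks than at P15 in both classes, whereas Igfbp2 and Sulf2 go in members from 90.5 and 70.5 CPM to 3.43 CPM each and in the other kept cells stand at 81.9 and 30.6 CPM at 8 weeks.

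Other genes also differed between ages. Gpx3 was at 1147, 3380 and 4853 CPM in members, a 4.23-fold difference that the other kept cells shared (507 to 2053 CPM). Thbs4, thrombospondin 4 of tendon matrix, was at 522, 791 and 2433 CPM in members against 798, 501 and 1257 CPM. Sostdc1 was lower at the later ages in members, from 266 to 59.4 CPM, and also in the other kept cells, from 105 to 15.7 CPM. Dlk1, a gene of immature mesenchyme, was at 79.7, 78.2 and 9.72 CPM in members and 18.7, 28.2 and 10.95 CPM in the other kept cells, so that the classes did not differ beyond counting error at 8 weeks.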

How the data were processed

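Pthrp-mCherry-positive cells of mandibular molars were profiled in 1 10x Chromium 3' library per age (P15, P25 and 8 weeks). The authors deposited whole-number UMI counts per gene and cell from Cell Ranger, without normalization. The submitters' notes name Cell Ranger 6.1.2 and mm10, while the P25 file header names 6.0.1 and holds 32293 features against 22056. The 21446 shared gene identifiers were used, and CPM is UMIs per 1000000 in them. The other libraries and assays of the study were not analysed here.

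Members, comparison groups and the 33 gene lists were chosen with earlier results of these data known. Counts were summed per library and class and fitted in edgeR 4.0.16 (filterByExpr, TMM, robust quasi-likelihood test, library block), with score and filter genes left out. Members and other kept cells of a library are the same animals, and their deviations from the class means correlated at 0.639 (P15), 0.712 (P25) and 0.545 (8 weeks). Samples within a test come from pools, and whether replicate animals would vary more is not known from them.

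Named genes were the score genes, examples from the lists, the 10 largest increases and 5 largest decreases against other kept cells, 5 in each direction against each other group, and 5 by age in each direction. They had to be called, to agree in direction over 3 libraries and to reach 50 CPM in the higher class. Some genes that met this rule are not reported here. For age the fold from P15 to 8 weeks counted, with P25 between both. Levels carry exact Poisson and shares Clopper-Pearson 95% intervals, for counting error only. Doublets were scored with Scrublet and kept. Its automatic threshold called 442, 0 and 39 cells, so at P25 the 538 highest scores (6%) were used. Kept cells were clustered per library with scanpy 1.11.5 (2000 variable genes, 30 components, 15 neighbours, Leiden resolution 1). On simulated data with 12991 genes for members against other kept cells, edgeR recovered 90% of 100 genes changed by a log2 fold of 1.5. It recovered 99% of 100 genes at 3 and called 32 unchanged genes, all on the adjusted p alone. The simulated counts were drawn without a choice of cells by a score. Alternatives were DESeq2 1.42.0, other size factors, no low-count filter, no block, each library left out, 2.5% or 10% of cells, doublets removed, separate parts of the UMIs for score and sums, thinned cells, the score without Pmch or Ogn, and genes joined by symbol. R 4.3.3 and Python 3.11.15 were used.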

Additional observations from a re-analysis of the deposited data

Results flagged for a closer look

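A trio of genes stood above the other kept cells in members at some ages and below them at others, each by more than 2-fold. The differences between ages were not tested, since each age is 1 library. Rgs5, a gene of pericytes, had a ratio of members to other kept cells of 0.195 at P15 (exact 95% interval 0.171 to 0.222), 2.93 at P25 (2.53 to 3.37) and 4.90 at 8 weeks (4.25 to 5.64), with 35.0, 41.8 and 143 CPM in members. Hbegf had ratios of 0.346 (0.249 to 0.469), 2.07 (1.81 to 2.37) and 2.12 (1.71 to 2.60). Igfbp2 had ratios of 2.12 (1.95 to 2.31), 0.275 (0.239 to 0.316) and 0.0419 (0.0153 to 0.0912).

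Some cells removed by the filter reached the lowest member score. At P15 these were 0.764% of the Ptprc-positive cells (8 of 1047, exact 95% interval 0.330 to 1.5%) and 1.17% of the Epcam-positive cells (12 of 1026, 0.606 to 2.03%). At P25 they were 0.727% (2 of 275) and 0.258% (2 of 774). The shares were higher at 8 weeks from few cells, at 3.70% of Ptprc-positive (1 of 27, 0.0937 to 18.97%) and 3.16% of Epcam-positive cells (3 of 95, 0.656 to 8.95%), with 0.499% of the cells under 500 genes or over 20% mitochondrial (3 of 601). Among Ibsp-high cells it was 1 of 1001 in the youngest library, 1 of 1184 in the next and 0 of 882 in the oldest (upper 95% bound 0.417%). They lie outside the members and entered no comparison.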

How the results depend on the processing

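The library block and the P25 library weighed most. With no replicate block, 79 genes were higher and 141 lower in members than in other kept cells, and 24 and 27 against the Mia Apod Gpha2 cells. Numbers pair the sums since both classes of a library come from the same animals. Against the Hand2 Nts Alx1 cells the block left both counts within 1.5 times. With 1 library left out, the counts ran from 241 to 385 higher and 640 to 1001 lower against other kept cells, from 118 to 218 and 144 to 188 against the Mia Apod Gpha2 cells, and from 0 to 1133 and 0 to 686 against the Hand2 Nts Alx1 cells. With 2 libraries the residual spread rests on few degrees of freedom. Of 117 genes named or called in a list against other kept cells, none reversed under any of the alternatives run, 86 lost their call without the block, and 30, 18 and 15 lost it without P25, P15 and 8 weeks. Choosing members on 1 part of the UMIs and summing the other part left 105 of 114 calls. Counts by age stayed within 1.5 times under every alternative run. The 8-week library was the shallowest, and low genes there rest on few UMIs.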
